A study of Mus musculus with 6 samples.

Results

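Interleukin 6 and interleukin 11 belong to a cytokine family whose receptors share the signal-transducing chain gp130, and 8 genes of that receptor system are described here in cultured ovaries of newborn mice. The genes are the cytokine-binding receptors Il11ra1, Il6ra and Cntfr, the signal-transducing receptors Il6st (which encodes gp130), Lifr and Osmr, the transcription factor gene Stat3 and the feedback inhibitor gene Socs3. They were taken by gene symbol from the deposited table of raw counts, which held all 8 among its 27098 genes. All 8 also passed the filter on low counts that left 17475 genes for testing. The genes were chosen by their place in the pathway and with their PRP against control counts in these same libraries already known. Those values are therefore given as a description, and counts of calls among the 8 genes are printed beside the share of all genes with no reading drawn from them.

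The study asked which ovarian transcripts respond to platelet-rich plasma (PRP), a plasma fraction concentrated in platelets and the growth factors they release. In the PRP group, ovaries from mice 3 days after birth were kept for 2 h in DMEM/F12 medium with 1% antibiotics and 2% PRP. In the control group, ovaries of the same age were kept for 2 h in that medium without PRP, and both groups stood at 37 °C under 5% CO2. There were 3 libraries in each group, numbered 1 to 3, with 36037111 to 36568367 counts in PRP and 35568000 to 35825931 counts in control. According to the series' design text the plasma was human and activated with thrombin, and no group analysed here is labelled as having received thrombin or another plasma alone. The sources used here do not give strain, sex or the number of ovaries or mice behind a library.

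Each cytokine of this family first binds its own receptor or gp130 itself, and the complex then joins gp130 to a partner chain. Interleukins 6 and 11 act through pairs of gp130 once they are held by IL6RA or IL11RA, leukemia inhibitory factor acts through LIFR with gp130, oncostatin M in the mouse mainly through OSMR with gp130, and ciliary neurotrophic factor through CNTFR with LIFR and gp130. JAK kinases bound to these chains phosphorylate STAT3, which enters the nucleus and switches on Socs3 among other genes, and SOCS3 protein then docks on gp130 and blocks the kinases. In rat ovary cultures, leukemia inhibitory factor is known to promote the step from primordial to primary follicle.

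The libraries differed among themselves in ways the groups do not describe. Libraries of the same number deviated together from their group means over all genes tested (correlations across genes of 0.24, 0.40 and 0.33 for numbers 1, 2 and 3), although no label pairs them. Control 3 stood apart: the summed level of 6 erythroid genes was 1335 CPM there (counts per 1000000 of the scaled library), against 109 to 225 CPM in PRP and 108 and 144 CPM in controls 1 and 2. The summed level of 4 neutrophil genes was 36.7 CPM in control 3, against 1.21 to 2.13 CPM in PRP and 1.90 and 2.42 CPM in controls 1 and 2. Pregranulosa markers summed to 1064 to 1108 CPM in PRP and 1041 to 1121 CPM in control, and oocyte markers to 889 to 1179 CPM in PRP and 839 to 1091 CPM in control, so both defining cell types of this tissue were present in every library. The 5 surface mesothelium markers summed to 182 to 212 CPM in PRP and 162 to 175 CPM in control, and the 6 stromal fibroblast markers to 2818 to 3352 CPM in PRP and 2537 to 3244 CPM in control. None of the markers listed for 10 cell types was at 0 throughout. In whole ovaries, fewer cells of a type and less RNA per cell cannot be told apart.

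All 8 genes were transcribed in every library, and their levels per length spanned a wide range. Divided by exon length, Stat3 was highest at 66.4 to 78.5 CPM per kb over the 6 libraries, above every value of the next gene. Socs3 followed at 26.9 to 52.5 CPM per kb and Il6st at 25.3 to 34.8, which overlapped, with Socs3 above Il6st in 5 of 6 libraries, the exception being control 2. Il11ra1 held 6.72 to 16.2 CPM per kb and was the most abundant of the 3 cytokine-binding receptors in each library but control 3, where Cntfr was level with it at 6.76 CPM per kb. Its range overlapped that of Osmr, at 6.66 to 10.3 CPM per kb, and Osmr was the higher of the pair in control 3 only. Cntfr at 4.58 to 7.68 and Lifr at 4.75 to 5.30 CPM per kb overlapped and could not be put in a firm order. Cntfr was the higher of the pair in 5 of 6 libraries, the exception being control 2. Il6ra was lowest at 1.29 to 2.55 CPM per kb, below every Lifr value. Ranked by the mean over the 6 libraries, the order was the same with the longest annotated transcript as the length. Il11ra1 then had a mean of 18.7 and Osmr of 18.1 CPM per kb, and Cntfr 8.60 and Lifr 5.66. The comparisons within single libraries above used exon length, and some of them differ with the longest transcript.

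**Figure D1:**
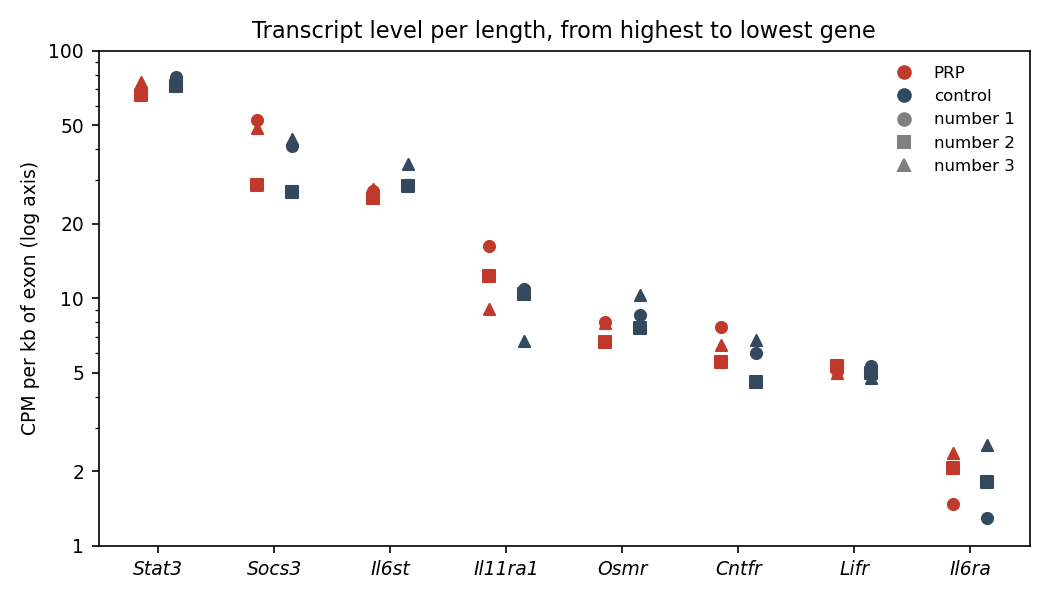
Level of each gene in each library as CPM per kb of exon on a log axis, PRP in red to the left of control in blue, with marker shapes for the replicate number. Stat3 lies at 66.4 to 78.5 and Il6ra at 1.29 to 2.55, with the other receptor chains between them.

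Il11ra1 encodes the chain that binds interleukin 11. Its level was 72.4, 54.8 and 40.5 CPM in PRP 1, 2 and 3, against 48.7, 46.4 and 30.0 CPM in controls 1, 2 and 3. The groups overlapped, because PRP 3 lay below controls 1 and 2, yet the PRP library was higher at each replicate number. It was 1.48-fold higher at number 1, 1.18-fold at number 2 and 1.35-fold at number 3. The means were 55.9 ± 16.0 CPM in PRP and 41.7 ± 10.2 CPM in control (SD, n = 3 each), and the log2 fold change was 0.42 ± 0.26 (SE, 95% interval -0.20 to 1.04) when the libraries were compared as unpaired groups in edgeR. With the replicate number as a block it was 0.41 ± 0.07 (0.26 to 0.57), with an edgeR adjusted p of 0.0381 over all genes tested. Without control 3, which held the lowest value, the unpaired log2 fold change was 0.23 ± 0.23, and without PRP 1, which held the highest, it was 0.19. The summed oocyte, stromal fibroblast and surface mesothelium markers were also higher in PRP at each number, and their part in this difference was not tested. Not every marker was higher by its log2 fold change: 5 of 6 oocyte, 5 of 6 stromal fibroblast and 4 of 5 surface mesothelium markers were. The sums of the other listed cell types were not higher in PRP at each number. Pregranulosa markers, for example, summed to 1064 CPM in PRP 1 and 1121 CPM in control 1.

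That adjusted p passed only in some forms of the blocked fit. It was 0.381, 0.111 and 0.108 in edgeR with libraries of number 1, 2 and 3 left out in turn. It was 0.0728 once GC content and length were corrected for, 0.096 in limma-voom with the block and 0.14 in edgeR without robust estimation. DESeq2 with the block gave Il11ra1 no adjusted p. Its unadjusted DESeq2 p there was 1.05e-05, so in that fit it neither passed nor failed. The direction was the same under all of these.

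Il11ra1 has near-identical copies in the reference, so its counts are uncertain. Of the 50-base words of its longest GENCODE transcript, 60.0% also occur in transcripts of Gm13305 and 24.1% in those of Il11ra2, whereas Il6st, Lifr, Osmr, Cntfr and Socs3 share none with any other gene. How reads common to several genes were assigned is unknown from the sources used here. Il11ra2 had 6, 33 and 6 counts in PRP 1, 2 and 3, against 9, 24 and 3 counts in controls 1, 2 and 3, and Gm13305 had at most 8 counts in any library. Il11ra2 thus stood highest in the number 2 libraries of both groups, unlike Il11ra1, and came to at most 1.66% of the Il11ra1 count. With the counts of the 3 genes added up, the blocked log2 fold change was 0.41 ± 0.07 (edgeR adjusted p = 0.0354).

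Il6ra, the chain that binds interleukin 6, was the least abundant receptor and differed mainly between replicate numbers. It had 12.8, 17.8 and 20.4 CPM in PRP 1, 2 and 3, against 11.2, 15.6 and 22.0 CPM in controls 1, 2 and 3. The number 3 libraries were highest and the number 1 libraries lowest in both groups, and the replicate number held 94.2% of the variance of its log2 level. The log2 fold change was 0.06 ± 0.27 (SE, -0.55 to 0.68), and its sign turned when PRP 3 or control 1 was left out (-0.09 and -0.15). A non-coding transcript on the other strand, Gm42809, covers 2.8% of the exonic bases of Il6ra, and reads from either strand may have been counted together.

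Cntfr encodes a receptor held in the membrane by a lipid anchor, with no cytoplasmic part of its own. It had 21.4, 15.3 and 17.9 CPM in PRP 1, 2 and 3, against 16.8, 12.7 and 18.8 CPM in controls 1, 2 and 3. The number 2 libraries were lowest in both groups, and PRP was higher at numbers 1 and 2 but not at number 3. The log2 fold change was 0.18 ± 0.17 (SE, -0.21 to 0.57). It was 0.05 without PRP 1 and 0.04 without control 2, and 0.29 without PRP 2 and 0.30 without control 3.

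Il6st encodes gp130 itself, and it was the 1 gene of the 8 whose groups did not overlap, as was so for 9.21% of all genes tested. It had 300.5, 281.3 and 307.6 CPM in PRP 1, 2 and 3, against 318.8, 315.4 and 385.8 CPM in controls 1, 2 and 3. The gap was narrow, since controls 1 and 2 lay close above the highest PRP library and control 3 far above it. The means were 296.5 ± 13.6 CPM in PRP and 340.0 ± 39.7 CPM in control (SD, n = 3 each). The log2 fold change was -0.20 ± 0.08 without the block (SE, -0.39 to -0.01) and -0.19 ± 0.05 with it (-0.30 to -0.09). Over all genes the edgeR adjusted p was 1 without and 0.153 with the block. Without control 3 the unpaired log2 fold change was -0.10 ± 0.07. DESeq2 with the block was the alternative in which Il6st passed (adjusted p = 0.0474).

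Osmr encodes the partner of gp130 for oncostatin M. It had 97.5, 80.6 and 95.8 CPM in PRP 1, 2 and 3, against 104.1, 92.1 and 125.1 CPM in controls 1, 2 and 3. PRP was lower at each number, the groups overlapped, and control 3 was again the highest library. The log2 fold change was -0.23 ± 0.12 (SE, -0.50 to 0.04) without the block and -0.22 ± 0.06 (-0.35 to -0.10) with it, and -0.10 ± 0.10 in the unpaired fit without control 3. It did not pass over all genes (edgeR adjusted p = 1 and, with the block, 0.161).

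Lifr, the receptor for leukemia inhibitory factor, was the steadiest of the 8 genes. It had 54.8, 57.1 and 53.5 CPM in PRP 1, 2 and 3, against 57.1, 54.0 and 51.2 CPM in controls 1, 2 and 3. Its highest library held 1.12 times its lowest, and the log2 fold change was 0.03 ± 0.07 (SE), with a 95% interval of -0.14 to 0.19.

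**Figure D2:**
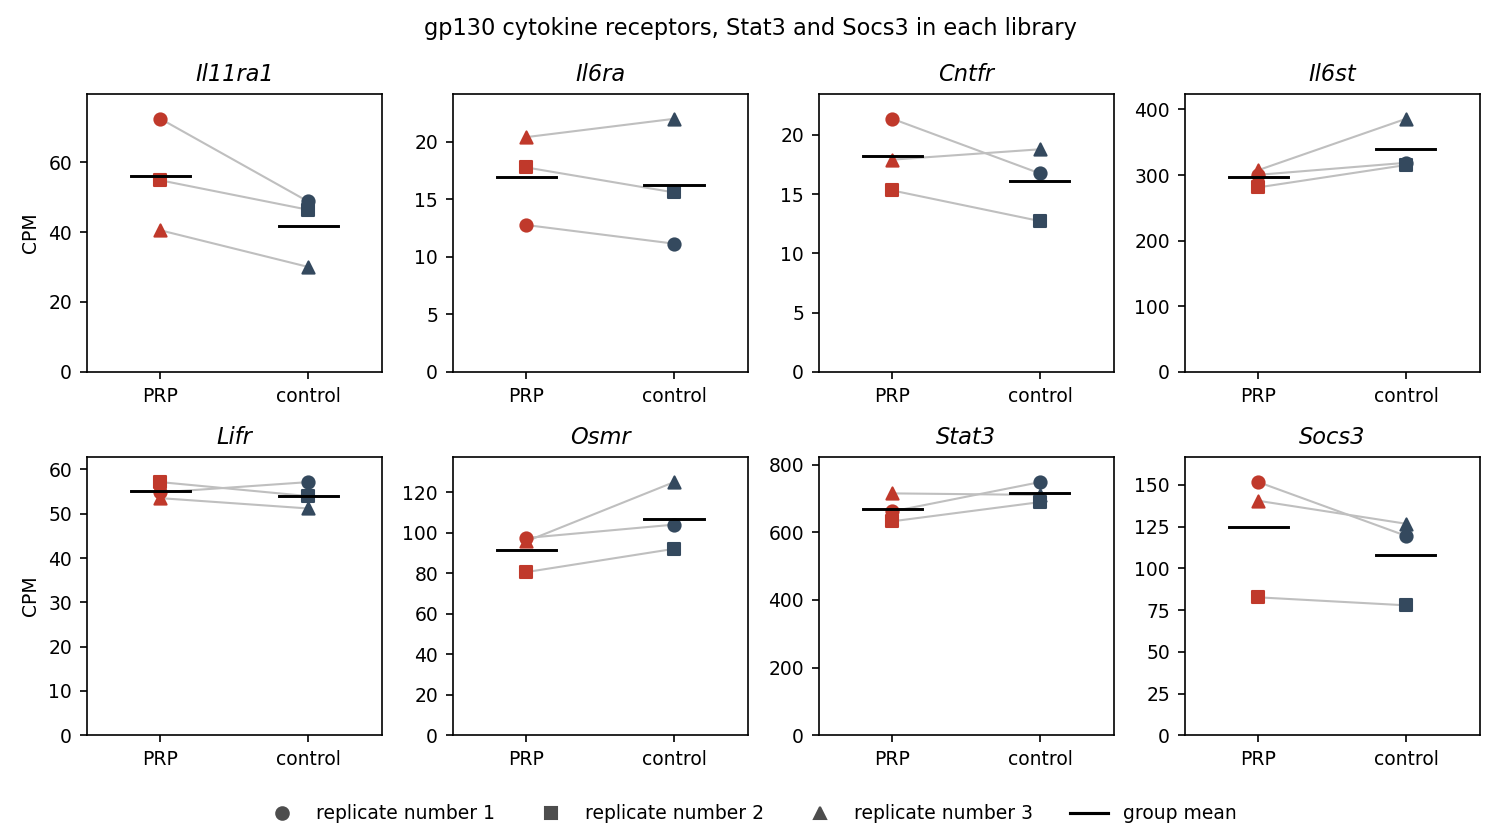
Level of each gene in CPM on a linear axis from 0, with PRP left of control, grey lines joining libraries of the same replicate number and black bars for the group means. Il11ra1 and Socs3 are higher in PRP along all 3 lines, Il6st and Osmr are lower along all 3, and Lifr lies nearly level.

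Stat3 encodes the transcription factor activated downstream of gp130. Its level exceeded that of 99.4% of the genes tested, at 661.7, 632.4 and 714.9 CPM in PRP 1, 2 and 3, against 748.2, 689.1 and 710.3 CPM in controls 1, 2 and 3. The groups overlapped through PRP 3, which was level with its control, while PRP 1 and PRP 2 were lower than theirs. The log2 fold change was -0.10 ± 0.06 (SE, -0.24 to 0.05), or -0.06 without PRP 2, and with the block -0.10 ± 0.04 (edgeR adjusted p = 0.415). These are transcript levels, and STAT3 phosphorylation was not measured here.

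Socs3, whose transcript is an early read-out of STAT3 activity in many cells, had 151.7, 82.6 and 140.5 CPM in PRP 1, 2 and 3, against 119.5, 77.9 and 126.7 CPM in controls 1, 2 and 3. The number 2 libraries lay far below the others in both groups, and the replicate number held 90.8% of the variance of its log2 level. PRP was higher at each number, by 1.27-, 1.06- and 1.11-fold at numbers 1, 2 and 3. The log2 fold change was 0.21 ± 0.29 (SE, -0.51 to 0.93) without the block and 0.19 ± 0.06 (0.07 to 0.32) with it, and it passed in neither edgeR fit (adjusted p = 1 and 0.196). It was 0.34 ± 0.36 without control 3 and 0.44 without PRP 2, and it was 0.05 without PRP 1 and 0.02 without control 2. With libraries of number 1 left out of the blocked fit it was 0.12 ± 0.06.

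Promoter sequence is shown for Socs3 because it is a known STAT3 target. It is shown for Il11ra1 and Il6st because Il11ra1 passed with the block and Il6st had groups that did not overlap. The letters TTCNNNGAA, a palindromic consensus of STAT binding sites that reads the same on both strands, were searched in windows from 250 bases before to 50 bases after each RefSeq start on GRCm38.p6. They occur in 2726 of 32851 such windows over all genes (8.3%) and in 1 of the 15 windows of the 8 genes (6.67%). The match was in the Socs3 window, where TTCTTAGAA begins at position -154 from that start (the start being 0), and it is printed in capitals in this run of RefSeq sequence. That start lies within the annotated span of Socs3, which begins further upstream. Absence from the other windows says only that these letters are not there.
Socs3, chr11:117969317-117969616, minus strand: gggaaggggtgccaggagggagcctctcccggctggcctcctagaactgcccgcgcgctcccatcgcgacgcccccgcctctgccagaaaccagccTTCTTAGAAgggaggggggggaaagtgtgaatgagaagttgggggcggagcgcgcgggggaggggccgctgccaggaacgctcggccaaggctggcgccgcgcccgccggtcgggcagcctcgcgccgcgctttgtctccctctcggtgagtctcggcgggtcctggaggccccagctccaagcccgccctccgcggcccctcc
Il11ra1, chr4:41760193-41760492, plus strand: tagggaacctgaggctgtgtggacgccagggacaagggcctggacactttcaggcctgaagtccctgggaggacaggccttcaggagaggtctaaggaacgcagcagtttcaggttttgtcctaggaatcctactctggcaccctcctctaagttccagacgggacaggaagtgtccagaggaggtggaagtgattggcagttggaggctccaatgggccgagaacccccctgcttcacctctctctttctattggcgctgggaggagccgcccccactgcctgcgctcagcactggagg
Il6st, chr13:112463820-112464119, plus strand: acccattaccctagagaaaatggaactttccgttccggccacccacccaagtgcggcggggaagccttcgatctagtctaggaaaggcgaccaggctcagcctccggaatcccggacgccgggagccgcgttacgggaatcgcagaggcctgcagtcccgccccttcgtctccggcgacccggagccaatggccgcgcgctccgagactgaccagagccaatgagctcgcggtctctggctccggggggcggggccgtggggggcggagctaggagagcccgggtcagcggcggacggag

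Several of the genes are neighbours, by the RefSeq positions given here. On chromosome 4, Cntfr (41657498 to 41697091) and Il11ra1 (41760443 to 41769473) are 63.4 kb apart with 6 genes of the table between them, and on chromosome 15, Osmr (6813568 to 6874968) and Lifr (7090610 to 7197489) are 215.6 kb apart with 1 gene between. Il6st (chromosome 13, 112464070 to 112506860) is followed after 15070 bases by Il31ra, another receptor of the gp130 type, and Stat5a ends 1636 bases before Stat3 (chromosome 11, 100886806 to 100939594). Socs3 lies at 117966079 to 117970336 on chromosome 11 and Il6ra at 89869324 to 89913196 on chromosome 3. GENCODE differs for some of these gaps. There Il11ra1 spans 41699989 to 41769474, with 6 genes overlapping that span, and Stat3 shares 72 exonic bases with Stat5a on the opposite strand. Galt, an enzyme of galactose metabolism that ends 1199 bases before Il11ra1, had log2 fold changes of 0.13 ± 0.24 without and 0.14 ± 0.08 with the block (SE), though like Il11ra1 it was lowest in both number 3 libraries, at 29.9 CPM in PRP 3 and 26.2 CPM in control 3. Rictor, the mTOR complex subunit gene 13166 bases before Osmr, had 128.0 to 137.4 CPM in PRP and 148.0 to 150.8 CPM in control. Its groups did not overlap, as was so for 9.21% of all genes tested. Its log2 fold change was -0.16 ± 0.06 and did not pass (edgeR adjusted p = 1, and 0.208 with the block).

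Across the 8 genes, 0 passed an adjusted p of 0.05 in the unpaired edgeR fit, as did 0% of all genes tested. DESeq2 and limma-voom without the block also called 0 of the 8 genes. At an unadjusted p under 0.05 there was 1 of the 8 in edgeR, Il6st, against 3.19% of all genes. With the block 1 of the 8 passed, Il11ra1, against 0.12% of all genes in either direction and 0.0801% in its direction, and 5 of the 8 had an unadjusted p under 0.05, against 11.2% of all genes. Il11ra1 and Socs3 were higher in PRP at all 3 numbers, as were 16.8% of all genes, and Il6st and Osmr were lower at all 3, as were 16.3%. Their median log2 fold change was 0.05, beside 0.00 over all genes tested.

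**Figure D3:**
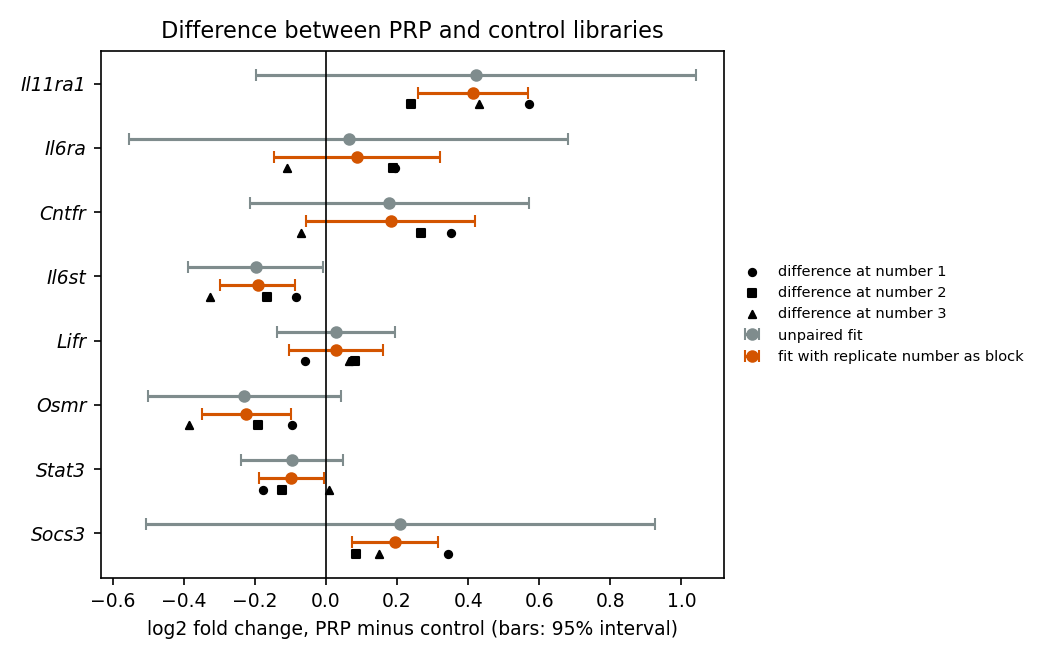
Log2 fold change of each gene, PRP minus control, in the unpaired fit (grey) and with the replicate number as a block (orange), with 95% intervals, and the difference at each replicate number in black. The blocked interval of Il11ra1 runs from 0.26 to 0.57, that of Osmr from -0.35 to -0.10, and that of Lifr spans 0.

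The profiles partly followed the replicate number. In each of the 8 genes the same number was lowest in both groups, which held for 50.6% of all genes tested. Number 2 was that lowest number in 5 of the 8 genes, Il6st, Osmr, Cntfr, Stat3 and Socs3, and in 20.1% of all genes. Among the tested STAT3 targets listed below it was so in 12 of 24, including Junb, Pim1, Myc, Bcl3 and Icam1. The replicate number held a median of 64.7% of the variance over the 8 genes and 55.7% over all genes tested, and the treatment a median of 21.8% over the 8 genes and 11.3% over all genes. The replicate number has more degrees of freedom than the treatment, and each takes a share even of unrelated values. Their shares are therefore not comparable with each other.

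Profiles over the 6 libraries, each centred on its mean, were compared with those of 11164 genes of sufficient level by their root mean square difference on the log2 scale. Socs3, whose own profile departed from its mean by 0.37, was most like Bmp7 (0.032), Lrrn3 (0.040) and Apcdd1 (0.051). Il11ra1, with a departure of 0.39, had looser matches in Krt83 (0.072), the MHC class I gene H2-T22 (0.13) and Rilpl1 (0.15). Osmr (0.19) was most like Sntb2 (0.038), Stil (0.047) and Scara5 (0.047), Cntfr (0.23) like the clock gene Per1 (0.039), Tgfb1 (0.044) and Fbxl7 (0.046), and Il6ra (0.35) like Tm4sf1 (0.089), Eno2 (0.10) and Basp1 (0.11). Il6st (0.14) was most like Epb41 (0.034), Nup210 (0.039) and Neil3 (0.041). For Lifr (0.055) and Stat3 (0.079) the closest were Prmt5 (0.016) and Cnot4 (0.019), but profiles as flat as these match many genes.

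The cytokines of the family were mostly scarce, and 9 of 11 could be tested. The highest was Clcf1, a cytokine that binds CNTFR, at 26.5, 25.1 and 28.8 CPM in PRP 1, 2 and 3, against 23.8, 24.1 and 26.7 CPM in controls 1, 2 and 3. Ctf1, cardiotrophin 1, had 3.46 to 4.28 CPM in PRP and 3.20 to 4.23 CPM in control. The ligands of the members named for them were lower still, except for Il6 in control 3. Il6 had 2.55, 1.71 and 2.58 CPM in PRP 1, 2 and 3, against 1.90, 1.56 and 4.85 CPM in controls 1, 2 and 3, with its highest value in control 3.

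Il11 had 0.69 to 1.74 CPM in PRP and 0.47 to 2.15 CPM in control, Lif 0.72 to 2.22 CPM in PRP and 0.86 to 2.30 CPM in control, and Osm 0.33 to 1.02 CPM in PRP and 0.61 to 0.84 CPM in control. None of these separated the groups. Ebi3, a subunit of interleukin 27, had 0.44 to 0.77 CPM in PRP and 0.72 to 1.16 CPM in control, with a log2 fold change of -0.61 ± 0.46, and Clcf1 had one of 0.11 ± 0.10 (SE). Ctf2 had 0.08 to 0.78 CPM in PRP and 0.11 to 0.47 CPM in control. Cntf had 2, 0 and 1 counts in PRP 1, 2 and 3, against 13, 3 and 3 counts in controls 1, 2 and 3, and Il27 had 2 counts in all, both too few to test. The list had 6 members higher and 3 lower in PRP, a median log2 fold change of 0.10, and 0 past the threshold in either fit. For this and the following lists, 8807 of all 17475 genes tested were higher in PRP and 8668 lower.

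Related receptors were tested in 5 of 8 cases, with 4 higher and 1 lower, a median of 0.08 on the log2 scale and 0 past the threshold in either fit. Lepr, the leptin receptor, was the most abundant at 23.9 to 30.3 CPM in PRP and 19.9 to 27.9 CPM in control. Il31ra had a log2 fold change of 0.55 ± 0.47 and Csf3r, the receptor of a neutrophil growth factor, one of -0.50 ± 0.47 (SE), both at less than 2 CPM in every library.

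JAK kinases and the other STATs lay lower in PRP in 8 of 10 genes, as did 8668 of all 17475 genes tested. The list had a median of -0.10 on the log2 scale and 0 past the threshold in either fit. Jak2 had 220.1, 235.9 and 238.2 CPM in PRP 1, 2 and 3, against 239.2, 250.6 and 275.9 CPM in controls 1, 2 and 3. Its groups did not overlap, by a narrow margin, and its log2 fold change was -0.14 ± 0.07 (SE). Over all the pathway lists the groups did not overlap in 9 of 71 tested genes, beside 9.21% of all genes tested. Stat2, which carries interferon signals, had 44.0, 34.9 and 44.0 CPM in PRP 1, 2 and 3, against 52.6, 43.8 and 60.9 CPM in controls 1, 2 and 3, with a log2 fold change of -0.35 ± 0.14 and a blocked edgeR adjusted p of 0.0641. Jak1, the main kinase of gp130, had a log2 fold change of -0.02 ± 0.08 (SE). Of these 10 genes, 6 had their highest value in control 3, as had 20.6% of all genes tested. The part of control 3 in the lower values of this list was not tested.

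Negative regulators other than Socs3 lay lower in 11 of 15 genes, with a median of -0.04 and 0 past the threshold in either fit. Ptpn1, a tyrosine phosphatase that acts on JAK2, had 115.3, 102.6 and 107.0 CPM in PRP 1, 2 and 3, against 122.9, 119.5 and 127.8 CPM in controls 1, 2 and 3. Its groups did not overlap, as was so for 9.21% of all genes tested. The log2 fold change of Ptpn1 was -0.19 ± 0.07 (SE, blocked edgeR adjusted p = 0.179). Socs4 also lay lower in every PRP library, at 40.9 to 47.0 CPM in PRP and 49.0 to 55.0 CPM in control. Socs2 had a log2 fold change of -0.01 ± 0.09 and Cish one of -0.17 ± 0.14 (SE), and whether these differ from the change in Socs3 was not tested.

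Adaptors and the proteases that release receptors from the membrane were lower in 5 of 8 genes, with a median of -0.02 and 0 past the threshold in either fit. Sos1, which links receptors to RAS, had 99.9 to 113.0 CPM in PRP and 114.2 to 120.4 CPM in control, a log2 fold change of -0.15 ± 0.07. Adam17 and Adam10, which cut IL6RA from the cell surface, had log2 fold changes of 0.00 ± 0.06 and -0.05 ± 0.05, and Rhbdf2, which guides ADAM17, one of -0.12 ± 0.10 (SE).

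STAT3 target genes were split evenly, 12 higher and 12 lower, with a median log2 fold change of -0.01. None of the 24 passed without the block, and 1 rose with it, Junb, a transcription factor gene also induced by growth factors. Junb had 137.4, 79.0 and 120.7 CPM in PRP 1, 2 and 3, against 108.1, 64.1 and 102.7 CPM in controls 1, 2 and 3. It was higher at each number, with both number 2 libraries lowest as in Socs3, and its blocked edgeR adjusted p was 0.0408. It did not pass in limma-voom with the block, without robust estimation, with the correction for GC content and length, or with libraries of any 1 number left out. Ier3, an early response gene, had a log2 fold change of 0.21 ± 0.08 and Timp1, a metalloproteinase inhibitor, one of -0.22 ± 0.11 (SE), and neither passed (blocked edgeR adjusted p = 0.176 and 0.168).

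Saa3, Lcn2 and Steap4 of that list, named after their values were seen, were set apart by control 3. Not all similar genes were: Serpina3n had 10.2 CPM in control 3 against 8.95 CPM in PRP 1. Lrg1 was highest in PRP 3, at 3.32 CPM against 2.75 CPM in control 3. Saa3 had 0.93, 0.72 and 1.05 CPM in PRP 1, 2 and 3, against 0.95, 1.11 and 24.6 CPM in controls 1, 2 and 3. Lcn2 was at 0.58 to 1.10 CPM in PRP and at 1.00, 0.89 and 4.03 CPM in controls 1, 2 and 3, and Steap4 at 29.4 to 34.9 CPM in PRP and at 33.2, 31.0 and 62.1 CPM in controls 1, 2 and 3. Il6, Il6ra, Il6st, Osmr and Jak3 were also highest in control 3, whereas Socs3 was not, since PRP 1 and PRP 3 exceeded it. Over the 71 pathway genes tested, 30 had their highest value in control 3 (42.3%), among them 12 of the 24 STAT3 targets. The same held for 3 of the 8 genes and 20.6% of all genes tested. Erythroid and neutrophil genes were high in the same library, and their part in these values was not tested.

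**Figure D4:**
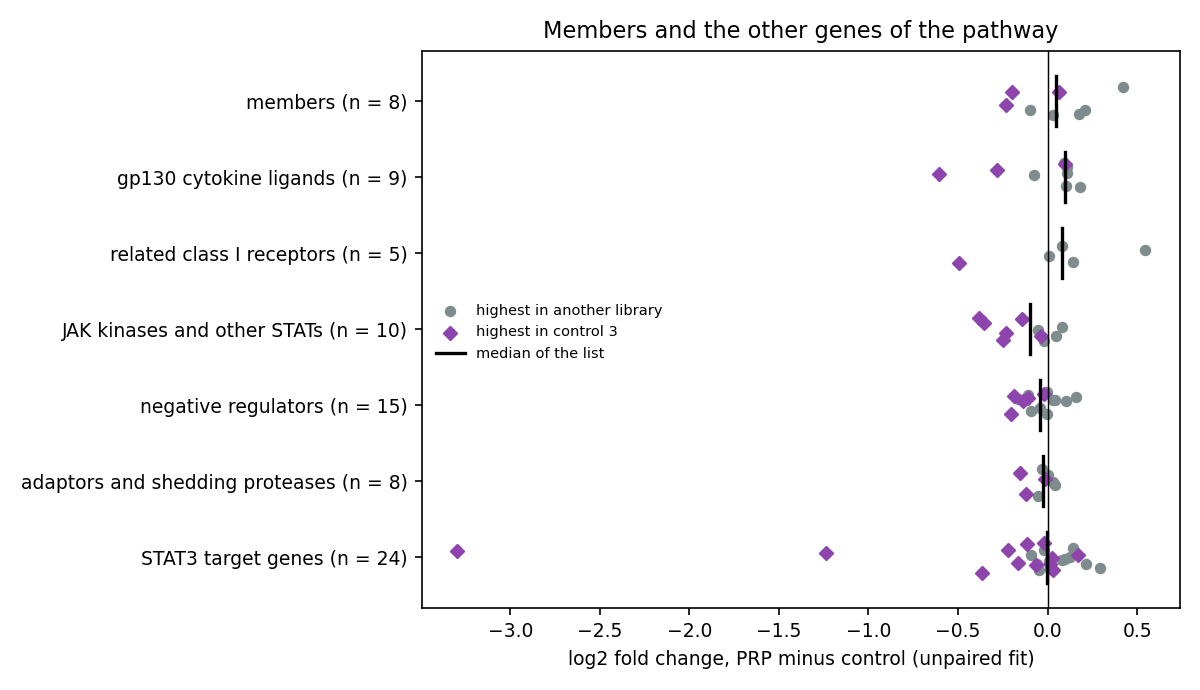
Log2 fold change of every tested gene by list, PRP minus control in the unpaired fit, with the median of each list as a black bar and purple diamonds for genes highest in control 3. Medians run from -0.10 for JAK kinases and other STATs to 0.10 for the ligands, and the far left points are the STAT3 targets Saa3 and Lcn2.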

How the data were processed

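RNA of 6 cultured mouse ovary samples was sequenced, and the authors deposited raw counts by gene symbol and Entrez identifier. The submitters' processing notes name the build GRCm38/mm10. No source used here names the aligner, the counter, its annotation or whether strand was used. Columns were matched to samples by title. The column PPR3 was taken as PRP 3, the title left over once all others had been matched. No library was a duplicate of another (chi-square per degree of freedom 8.41 or above in all 15 pairs). The labels leave unsaid whether replicates were cultured separately, so p-values cover no more than the differences among these samples, which could be technical.

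All genes were fitted together in edgeR 4.0.16 (R 4.3.3) by the robust quasi-likelihood test after filterByExpr and TMM scaling. The contrast was PRP minus control, p-values were two-sided and adjusted by Benjamini-Hochberg, and the threshold was 0.05. Standard errors were obtained by dividing the log2 fold change by the root of F. CPM used TMM library sizes, and CPM per kb the exon length of GENCODE M21 (GRCm38). Gene positions and promoters are RefSeq GRCm38.p6, and all 8 genes matched. Replicate numbers were taken as pairs, since same-number libraries correlated at 0.24 or above in their deviations, which is a hint from these data and not from a label. Blocked values are printed where they differ in call or bear on a member. Alternatives were DESeq2 1.42.0, limma-voom (limma 3.58.1), other factors and filters, leaving out libraries, and an offset for GC content and length (93.4% of tested genes had both). The procedure was tested on simulated data, and how well it recovers differences as small as those of the 8 genes is not given here. The members and lists were chosen with earlier results of these data known. Named genes were all 8 members, all ligands, and of each other list the 2 with the smallest unpaired p-values and any that passed, except that a gene this rule would name is counted in its list but not reported here. Genes given beyond that rule (Jak1, Jak3, Socs2, Cish, Adam10, Adam17, Lepr, Pim1, Myc, Bcl3, Icam1, Saa3, Lcn2, Steap4, Serpina3n and Lrg1) were chosen after their values were seen.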

Additional observations from a re-analysis of the deposited data

How the results depend on the processing

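Without the block, the count of genes called was 0 of all genes tested, of the 8 genes and of the pathway genes under every scaling, filter and tool tried and without each library in turn. With the replicate block, 21 genes, 1 of the 8 (Il11ra1) and 1 pathway gene (Junb) passed, and likewise 21, 1 and 1 with Il11ra1 summed with its copies (chosen after seeing the data). DESeq2 with the replicate block called 88 genes, 1 of the 8 (Il6st) and 2 pathway genes (Junb among them). It gave Il11ra1, Il6ra, Lifr and Cntfr no adjusted p, so these could not be called there. The blocked fit with GC content and length correction called 12 genes. With libraries of 1 number left out, the blocked fit called 1 to 19 genes, 0 of the 8 and 0 to 1 pathway gene (Cebpd). Limma-voom with the block and the blocked fit without robust estimation called 0. The sign turned for Il6ra without PRP 3 (-0.089) and without control 1 (-0.148) and for Lifr without control 3 (-0.01), and leaving out single libraries gave -0.148 to 0.345 for Il6ra and -0.01 to 0.067 for Lifr. The other 6 genes kept their direction in all 22 alternatives: Il11ra1 at 0.192 to 0.608, Cntfr at 0.036 to 0.31, Socs3 at 0.023 to 0.436, Il6st at -0.247 to -0.096, Osmr at -0.325 to -0.103 and Stat3 at -0.15 to -0.056. Without the block, differences of the size seen in Il6ra or Socs3 could not be told from the spread between libraries.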
